A study of Homo sapiens with 6 samples.

Results

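The genes described here encode the SR proteins, the hnRNPs and the kinases that phosphorylate SR proteins. They were taken by symbol as every SRSF, TRA2, CLK (CLK1 to CLK4), SRPK and HNRNP gene of the deposited table, 42 of 16626 genes. The set holds 7 kinase genes, 14 SRSF and TRA2 genes and 21 HNRNP genes. The RNA was from KGN, an established human cell line that grew out of a granulosa cell tumour of the ovary. The study compared 3 libraries labelled OE-SOX3, with the genotype given as SOX3 overexpression, with 3 libraries labelled OE-NC, with the genotype given as WT. The sources used here do not give the vector, its promoter or the number of clones, nor whether each library had a culture of its own. The p-values therefore reflect the spread among these libraries alone, and that spread may be technical.

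SR proteins bind exonic enhancers in pre-mRNA and recruit the spliceosome through domains rich in arginine and serine. SRPK kinases phosphorylate these domains in the cytoplasm, which lets the proteins enter the nucleus, and CLK kinases phosphorylate them further in the nucleus and release them from nuclear speckles. hnRNPs coat nascent transcripts and often act against SR proteins at the same exons. Many SRSF, TRA2, CLK and HNRNP genes also regulate their own transcripts through poison exons or retained introns, so a level per gene does not give the amount of productive mRNA.

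SOX3, the overexpressed gene, was at 14.3, 13.7 and 14.4 FPKM in OE-SOX3 libraries and at 0.0756, 0.142 and 0.0254 FPKM in OE-NC libraries. FPKM are reads scaled to gene length and to the library total. Libraries held 18039929 to 20335307 reads, recovered from the steps of the values. Of 10 granulosa markers in the table, 3 (FOXL2, AMH and NR5A1) reached 1 FPKM in every library, and the aromatase gene CYP19A1 averaged 0.925 FPKM in OE-SOX3 and 0.273 FPKM in OE-NC. The granulosa markers summed to 28.9 to 31.5 FPKM in OE-SOX3 and 23.7 to 26.5 FPKM in OE-NC. The markers of other ovarian cell types summed to 61.1 to 63.0 FPKM in OE-SOX3 and 81.6 to 86.6 FPKM in OE-NC. Most of this sum was CD68 alone, which averaged 56.0 FPKM in OE-SOX3 and 78.1 FPKM in OE-NC. Of these markers, 3 of 13 (CD68, PECAM1 and KDR) reached 1 FPKM in every library. PTPRC, CD3E, VWF, CDH5, EPCAM and DDX4 averaged under 1 FPKM in both groups. The part of these markers in the results was not tested.

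The library OE-NC 1 stood apart. On the log2(FPKM + 1) scale it correlated at 0.986 with each of the other OE-NC libraries, which correlated at 0.998 with each other. It was above both of them in 32 of 39 tested members, against 5104 of 11131 tested genes, by a median of 0.24 on the log2 scale over the members and 0.30 over the HNRNP genes. The difference ran with gene length, with a median of 0.24 in the shortest of 4 equal length classes of genes and -0.16 in the longest. The comparison of the groups ran with length too, with a median log2 difference between OE-SOX3 and OE-NC of -0.245, -0.107, 0.0307 and 0.164 over the same classes, from the shortest to the longest. The part of gene length was tested only by removing this trend. Values without OE-NC 1 are given beside the members it moved most. The sum of FPKM was 329813 to 334915 in OE-SOX3 libraries, 395040 in OE-NC 1 and 353550 to 354806 in the other OE-NC libraries. Scaling all libraries to an equal sum moved the median log2 fold change of all tested genes to 0.10, against -0.03 as deposited, and the share of higher genes among those changed to 57.8%, against 47.7%.

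The kinase genes and the RNA-binding protein genes differed in direction. Of 6 tested kinase genes, 4 rose, 1 fell and 1 did not pass. Of 13 tested SRSF and TRA2 genes, 2 rose, 9 fell and 2 did not pass. Of 20 tested HNRNP genes, 0 rose, 15 fell and 5 did not pass. Here a gene rose or fell when its limma adjusted p was below 0.05, a test passed by 69.1% of all tested genes, 32.9% upward and 36.1% downward. Over the members, 31 of 39 passed, a share near that of all genes, with 25 lower and 6 higher. With a 1.5-fold difference also required, 5 members rose and 14 fell, where 16% and 18.5% of all tested genes did. The libraries of the groups did not overlap for 34 of 39 members, against 76% of all tested genes. The median log2 fold change was 0.55 for the kinases, -0.49 for SRSF and TRA2 genes and -0.52 for HNRNP genes, against -0.03 for all tested genes. In bulk RNA, more RNA per cell and more cells with the transcript cannot be told apart.

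**Figure D1:**
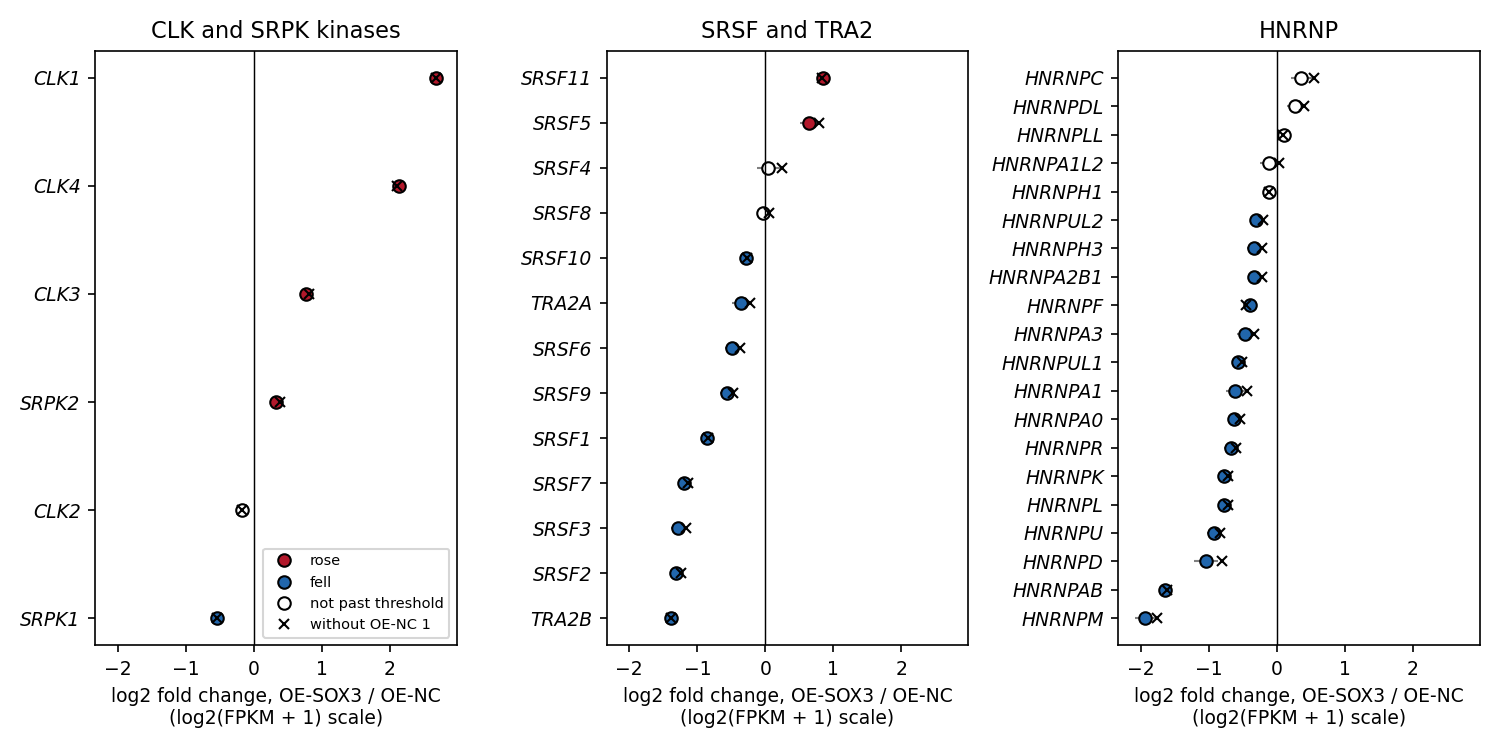
Log2 fold change of each tested member (x axis, OE-SOX3 over OE-NC on the log2(FPKM + 1) scale; bars, SE of the limma fit; n = 3 libraries per group), with filled points past the threshold and crosses for the fit without OE-NC 1. CLK1 and CLK4 lie at 2.68 and 2.14, whereas 15 of 20 HNRNP genes are filled on the lower side.

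CLK1, the founding member of the CLK family, had 79.96, 78.76 and 73.47 FPKM in OE-SOX3 libraries, against 11.18, 10.99 and 11.44 FPKM in OE-NC libraries. Every OE-SOX3 library was thus more than 6 times above every OE-NC library, and OE-NC 1 lay between the other OE-NC libraries. CLK1 rose by 2.68 on the log2 scale (SE 0.06, limma adjusted p = 6.18e-07). Behind this were 10111 reads in OE-SOX3 and 1505 in OE-NC. Corrected for depth, their ratio was 6.92, with a 95% interval from 6.55 to 7.31 that covers counting error. The gene lies on chromosome 2 (200853009 to 200864744, minus strand, GRCh38) and shares no exon base with another annotated gene.

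CLK4, the closest relative of CLK1, had 68.3, 68.1 and 68.0 FPKM in OE-SOX3 and 14.1, 14.9 and 15.1 FPKM in OE-NC. The OE-SOX3 libraries were nearly equal, and the groups were far apart (log2 fold change 2.14, SE 0.06, limma adjusted p = 9.1e-07). CLK4 lies on chromosome 5 (178602664 to 178630615, minus strand). Among the 39 tested members ordered by mean FPKM, CLK1 stood at place 8 in OE-SOX3 and at place 35 in OE-NC, and CLK4 at place 11 in OE-SOX3 and at place 34 in OE-NC.

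CLK3 rose less, with 38.5, 35.6 and 35.1 FPKM in OE-SOX3 and 22.0, 20.5 and 20.2 FPKM in OE-NC (log2 fold change 0.77, SE 0.07, limma adjusted p = 5.61e-05). CLK2 did not pass, at 18.0, 15.8 and 17.4 FPKM in OE-SOX3 and 19.4, 19.2 and 19.3 FPKM in OE-NC. Its OE-SOX3 libraries all lay below its OE-NC libraries, by a small margin (log2 fold change -0.17, limma adjusted p = 0.0518). Without OE-NC 1 the log2 fold change was also -0.17, but CLK2 passed (limma adjusted p = 0.0189). In that fit 81.5% of all tested genes passed. At an equal sum of FPKM the CLK2 value was -0.03. The 4 CLK genes thus did not move in step.

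The make-up of CLK transcripts differed between the groups, on a measure that does not depend on the library total. CLK1 made up 39.1%, 39.7% and 37.9% of the summed CLK FPKM in OE-SOX3 and 16.8%, 16.8% and 17.3% in OE-NC. CLK2 made up 8.77%, 7.98% and 8.96% in OE-SOX3 and 29.1%, 29.2% and 29.3% in OE-NC. CLK1 was therefore the most abundant CLK transcript in every OE-SOX3 library and the least abundant in every OE-NC library. All CLK genes together summed to 205, 198 and 194 FPKM in OE-SOX3 and 66.6, 65.6 and 66.1 FPKM in OE-NC.

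The SRPK genes went in opposite directions. SRPK1, the main cytoplasmic SR protein kinase of many cell types, had 18.3, 18.3 and 18.1 FPKM in OE-SOX3 and 27.4, 26.9 and 26.9 FPKM in OE-NC (log2 fold change -0.54, SE 0.05, limma adjusted p = 0.0001). SRPK2, its close relative, had 7.94, 8.23 and 7.38 FPKM in OE-SOX3 and 6.55, 5.89 and 5.65 FPKM in OE-NC (log2 fold change 0.33, SE 0.07, limma adjusted p = 0.0058). Neither pair of groups overlapped, but SRPK2 did not pass once the length trend was removed (limma adjusted p = 0.0962). SRPK3, a muscle-enriched kinase, was at 0 or 1 read in each library and was not tested.

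**Figure D2:**
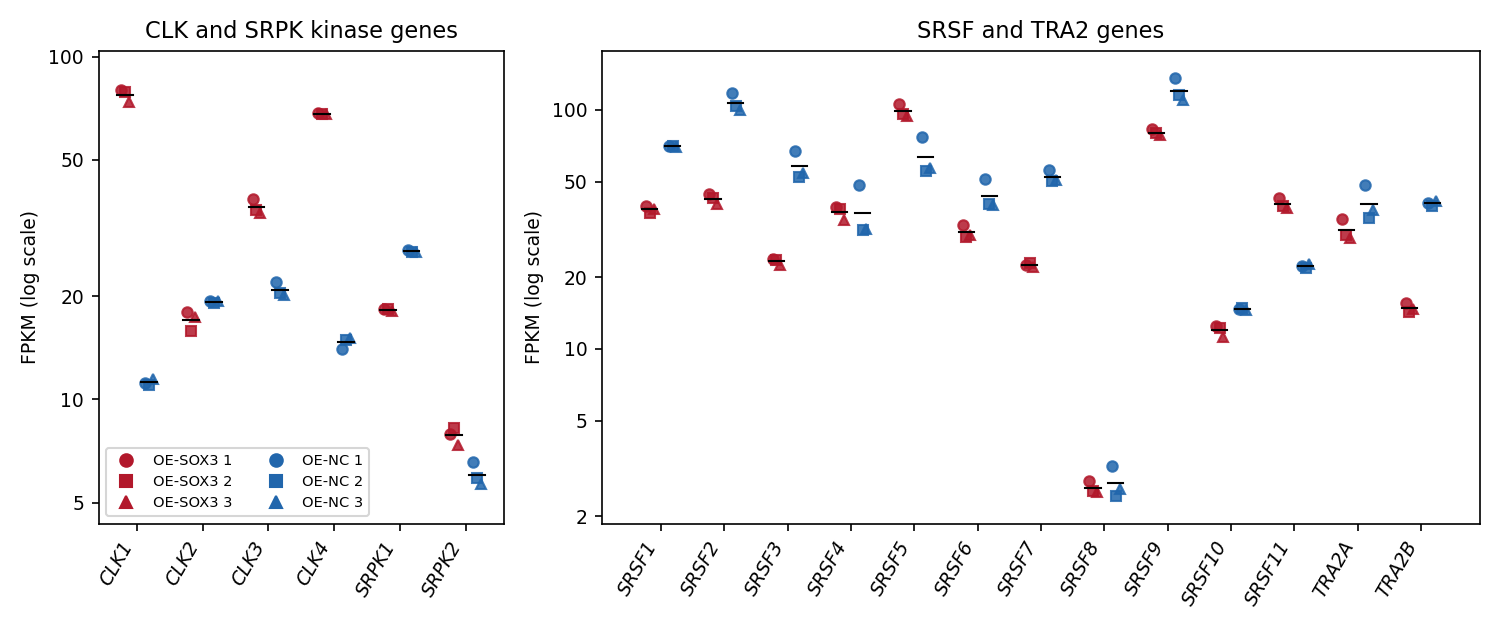
FPKM (y axis, log scale) of the 6 tested kinase genes and the 13 tested SRSF and TRA2 genes in each library; bars mark group means of 3 libraries and symbols the replicate number. CLK1 and CLK4 stand apart from their OE-NC libraries by the widest margin, and OE-NC 1 (blue circles) lies above the other OE-NC libraries for SRSF3, SRSF4, SRSF5 and TRA2A.

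The promoters of CLK1 and CLK4, the members with the largest rises, are shown because both genes moved together. Each is the RefSeq window from 250 bases before to 50 bases after the gene's start (GRCh38.p14), read on the gene's strand. CLK1 is chr2:200864609-200864908 and CLK4 is chr5:178627001-178627300, both minus strand. RefSeq and GENCODE place the starts differently, and the CLK4 window lies within the gene as given above from GENCODE.
CLK1: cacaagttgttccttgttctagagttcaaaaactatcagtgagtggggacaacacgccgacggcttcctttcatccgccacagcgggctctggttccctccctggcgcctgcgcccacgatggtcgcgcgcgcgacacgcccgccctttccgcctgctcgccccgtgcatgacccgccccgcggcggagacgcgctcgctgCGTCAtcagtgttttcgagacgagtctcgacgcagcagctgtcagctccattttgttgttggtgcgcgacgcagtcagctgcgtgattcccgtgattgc
CLK4: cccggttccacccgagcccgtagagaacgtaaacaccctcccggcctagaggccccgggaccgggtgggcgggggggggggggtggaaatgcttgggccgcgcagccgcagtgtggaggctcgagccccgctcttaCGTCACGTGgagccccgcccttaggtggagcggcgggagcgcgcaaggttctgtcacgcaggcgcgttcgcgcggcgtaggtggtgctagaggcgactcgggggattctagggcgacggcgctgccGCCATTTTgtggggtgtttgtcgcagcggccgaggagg
Capitals mark matches, on either strand, to 5 motifs chosen after the sequences were seen: ACAAT (the core of SOX sites), TGACG (a core piece of the cAMP response element), CACGTG (the E-box), CCAAT (the CCAAT box) and GCCATNTT (a form of the YY1 site). CLK1 held TGACG, as its reverse complement from base -49. CLK4 held TGACG from base -114, overlapping CACGTG from base -111, and GCCATNTT from base 13, counted from the start. Neither window held ACAAT or CCAAT.

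RefSeq promoters were matched for 39 of the 42 members, all but SRSF2, HNRNPA1 and TRA2A. ACAAT was in the promoters of 2 of 6 members that rose and 6 of 22 that fell, against 28.1% of 27305 RefSeq promoters. TGACG was in 4 of 6 that rose and 9 of 22 that fell, against 25.0% of all promoters. The numbers for CACGTG were 1 of 6 and 5 of 22 (7.41% of all promoters), for CCAAT 1 of 6 and 11 of 22 (35.7%), and for GCCATNTT 1 of 6 and 3 of 22 (6.81%). The counts include CLK1 and CLK4, whose sequences had been seen when the motifs were chosen, so they give no separate support. Both are among the risen members with TGACG, and CLK4 alone of these members had CACGTG or GCCATNTT. The RefSeq promoters were not limited to tested genes. These matches describe letters in the window and were not tested.

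Most classical SR protein genes were lower in OE-SOX3. SRSF2, which binds exonic enhancers and promotes exon inclusion, had 44.6, 42.7 and 40.3 FPKM in OE-SOX3 and 118, 104 and 100 FPKM in OE-NC (log2 fold change -1.31, SE 0.08, limma adjusted p = 1.33e-05). SRSF3, the smallest SR protein, also active in mRNA export, had 23.8, 23.7 and 22.4 FPKM in OE-SOX3 and 67.5, 52.6 and 54.4 FPKM in OE-NC (-1.28, limma adjusted p = 3.74e-05, and -1.17 without OE-NC 1). SRSF7, its relative with a zinc knuckle, had 22.4, 22.9 and 22.0 FPKM in OE-SOX3 and 55.9, 50.6 and 51.0 FPKM in OE-NC (-1.19, limma adjusted p = 7.26e-06). In each of these 3 genes the highest OE-SOX3 library was under the lowest OE-NC library by a wide margin.

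SRSF1, the archetypal SR protein and a regulator of constitutive and alternative splicing, had 39.6, 37.2 and 38.4 FPKM in OE-SOX3 and 70.9, 70.7 and 69.6 FPKM in OE-NC. Its OE-NC libraries were nearly equal (log2 fold change -0.86, SE 0.06, limma adjusted p = 1.73e-05). TRA2B, an SR-like activator of exons with purine-rich enhancers, had 15.5, 14.3 and 14.7 FPKM in OE-SOX3 and 40.6, 39.8 and 41.4 FPKM in OE-NC. This was the largest fall among the SRSF and TRA2 genes (log2 fold change -1.39, SE 0.06, limma adjusted p = 3.24e-06), and it was -1.39 also without OE-NC 1. Its paralog TRA2A had 34.9, 29.9 and 29.1 FPKM in OE-SOX3 and 48.3, 35.3 and 38.1 FPKM in OE-NC. TRA2A passed narrowly (log2 fold change -0.36, limma adjusted p = 0.0412), and the call was lost without OE-SOX3 2 (0.122), without OE-SOX3 3 (0.133) and without OE-NC 3 (0.0568). It was also lost at an equal sum of FPKM (0.0905), under quantile normalization (0.266), without the length trend (0.11) and with no filter on low values (0.0589). Without OE-NC 1 it passed, at -0.23 (0.0154).

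SRSF9, SRSF6 and SRSF10 fell by smaller amounts. SRSF9, the closest paralog of SRSF1, averaged 80.4 ± 2.34 FPKM in OE-SOX3 and 120 ± 13.8 FPKM in OE-NC (SD, n = 3 each; log2 fold change -0.57, limma adjusted p = 0.00102). SRSF6, an enhancer-binding SR protein, averaged 30.8 ± 1.99 FPKM in OE-SOX3 and 43.8 ± 6.38 FPKM in OE-NC (-0.49, limma adjusted p = 0.0056, and -0.37 without OE-NC 1). SRSF10, known as a splicing repressor when dephosphorylated in heat shock, averaged 12.0 ± 0.626 FPKM in OE-SOX3 and 14.7 ± 0.103 FPKM in OE-NC (-0.28, limma adjusted p = 0.00572), and did not pass at an equal sum of FPKM (0.126). SRSF9 shares 46.2% of its exon bases with the antisense gene GATC, and SRSF2 shares 36.7% with the antisense gene MFSD11 and MIR636. Strand use in counting was not given, so reads of these overlapping genes cannot be told apart. SRSF1 shares 60.7% of its exon bases with AC015813.2 and the antisense gene AC015813.5, under the same limit.

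SRSF11 and SRSF5 were the members of this class that rose. SRSF11, an SR-related protein associated with splicing of microexons in neurons, had 42.9, 39.7 and 38.7 FPKM in OE-SOX3 and 22.1, 21.8 and 22.7 FPKM in OE-NC (log2 fold change 0.84, SE 0.06, limma adjusted p = 3.16e-05). SRSF5, an enhancer-binding SR protein first described as an insulin-induced transcript in rat liver cells, had 105, 96.0 and 94.4 FPKM in OE-SOX3 and 77.0, 55.8 and 57.3 FPKM in OE-NC. The groups of SRSF5 did not overlap, although OE-NC 1 was nearer to OE-SOX3 than its fellows (log2 fold change 0.64, limma adjusted p = 0.00327, and 0.79 without OE-NC 1). SRSF5 was the most abundant SRSF transcript in OE-SOX3, whereas SRSF9 was in OE-NC.

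SRSF4 was decided by OE-NC 1. It had 39.4, 38.3 and 34.6 FPKM in OE-SOX3 and 48.4, 31.3 and 31.8 FPKM in OE-NC, so the groups overlapped only through that library. The log2 fold change was 0.04 (limma adjusted p = 0.852) with all libraries and 0.24 (limma adjusted p = 0.0025) without OE-NC 1. SRSF8, an expressed retrocopy of SRSF2, averaged 2.63 FPKM in OE-SOX3 and 2.75 FPKM in OE-NC and did not pass (limma adjusted p = 0.685); it can share reads with its parent gene. SRSF12 was at 0 or 1 read in each library and was not tested.

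HNRNPM and HNRNPAB had the largest falls of all members. HNRNPM, an RNA-binding protein that promotes exon skipping and is linked to mesenchymal splicing programmes, had 22.9, 20.5 and 21.6 FPKM in OE-SOX3 and 109, 77.8 and 74.1 FPKM in OE-NC (log2 fold change -1.94, SE 0.15, limma adjusted p = 3.03e-05). OE-NC 1 was the highest library, and without it the log2 fold change was -1.76. HNRNPAB, a relative of HNRNPD that binds AU-rich RNA, had 48.5, 48.7 and 46.9 FPKM in OE-SOX3 and 158, 148 and 149 FPKM in OE-NC (log2 fold change -1.64, SE 0.06, limma adjusted p = 2.05e-06). Here the libraries of each group were close together. HNRNPM lies on chromosome 19 (8444767 to 8489114, plus strand) and HNRNPAB on chromosome 5 (178204507 to 178211163, plus strand, GRCh38).

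The promoters of these 2 genes are shown for comparison with those of CLK1 and CLK4, in the same window and with the same motifs in capitals. HNRNPM is chr19:8444725-8445024 and HNRNPAB is chr5:178204283-178204582, both plus strand. The RefSeq start of each lies downstream of the GENCODE start given above.
HNRNPM: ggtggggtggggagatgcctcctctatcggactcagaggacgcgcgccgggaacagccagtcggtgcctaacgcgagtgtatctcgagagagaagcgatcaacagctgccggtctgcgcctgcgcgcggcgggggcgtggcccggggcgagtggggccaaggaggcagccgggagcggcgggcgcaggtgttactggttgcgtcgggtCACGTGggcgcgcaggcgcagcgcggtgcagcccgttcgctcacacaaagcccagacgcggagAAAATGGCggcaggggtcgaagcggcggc
HNRNPAB: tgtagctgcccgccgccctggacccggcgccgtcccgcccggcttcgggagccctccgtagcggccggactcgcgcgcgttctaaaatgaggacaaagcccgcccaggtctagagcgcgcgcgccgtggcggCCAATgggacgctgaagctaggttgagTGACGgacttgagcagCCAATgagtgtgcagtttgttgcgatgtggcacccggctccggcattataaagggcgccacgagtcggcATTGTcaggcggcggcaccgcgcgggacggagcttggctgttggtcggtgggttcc
HNRNPM held CACGTG from base -42 and GCCATNTT as its reverse complement from base 22. HNRNPAB held CCAAT from bases -118 and -75, TGACG from base -91 and ACAAT as its reverse complement from base -6. E-box and GCCATNTT letters were thus found in a promoter of a member that rose (CLK4) and in 1 of a member that fell (HNRNPM). TGACG, too, was in promoters of members that rose (CLK1 and CLK4) and of a member that fell (HNRNPAB).

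Other abundant HNRNP genes were lower as well. HNRNPD, also known as AUF1, which binds AU-rich elements and speeds mRNA decay, had 53.8, 45.6 and 48.4 FPKM in OE-SOX3 and 139, 89.2 and 85.2 FPKM in OE-NC (log2 fold change -1.04, SE 0.18, limma adjusted p = 0.0019, and -0.81 without OE-NC 1). HNRNPU, a nuclear scaffold protein that binds chromatin-associated RNA, had 40.8, 39.9 and 39.3 FPKM in OE-SOX3 and 88.2, 73.5 and 70.2 FPKM in OE-NC (-0.93, and -0.83 without OE-NC 1). HNRNPK, which binds C-rich sequence, had 132, 134 and 127 FPKM in OE-SOX3 and 242, 217 and 214 FPKM in OE-NC (-0.77). HNRNPL, which binds CA repeats, had 80.8, 77.8 and 79.99 FPKM in OE-SOX3 and 146, 131 and 132 FPKM in OE-NC (-0.77). In all 4 genes each OE-SOX3 library was below each OE-NC library, and the limma adjusted p was below 0.05 in every alternative tried.

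HNRNPA1, the most abundant member in OE-NC and a repressor of exons with UAGG-like sites, had 223, 207 and 204 FPKM in OE-SOX3 and 407, 293 and 282 FPKM in OE-NC (log2 fold change -0.61, SE 0.14, limma adjusted p = 0.00669, and -0.44 without OE-NC 1). Its retrocopy HNRNPA1L2, which can share reads with it, averaged 4.54 FPKM in OE-SOX3 and 5.03 FPKM in OE-NC and did not pass (-0.11, limma adjusted p = 0.482, and 0.03 without OE-NC 1). HNRNPA2B1, a paralog that also reads m6A-dependent structures, had 234, 216 and 212 FPKM in OE-SOX3 and 320, 260 and 254 FPKM in OE-NC (-0.33, limma adjusted p = 0.0246, and -0.22 without OE-NC 1). Its call was lost without OE-SOX3 2 (0.0838) and without OE-SOX3 3 (0.089). The order of HNRNPA1 and HNRNPA2B1 therefore differed between the groups, with HNRNPA2B1 the higher of the pair in each OE-SOX3 library and HNRNPA1 in each OE-NC library.

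The remaining falls in this family were -0.30 to -0.68 on the log2 scale. They comprised HNRNPR (-0.68), HNRNPA0 (-0.63), HNRNPUL1 (-0.57), HNRNPA3 (-0.47), HNRNPF (-0.40), HNRNPH3 (-0.33) and HNRNPUL2 (-0.30). HNRNPR had 16.8 to 18.5 FPKM in OE-SOX3 and 26.6 to 32.4 FPKM in OE-NC, and HNRNPA0 had 11.2 to 11.9 FPKM in OE-SOX3 and 17.1 to 20.8 FPKM in OE-NC. HNRNPUL1 had 44.8 to 47.5 FPKM in OE-SOX3 and 65.8 to 75.2 FPKM in OE-NC, and HNRNPA3 had 47.6 to 51.4 FPKM in OE-SOX3 and 60.9 to 83.3 FPKM in OE-NC. HNRNPH3 had 33.6 to 38.0 FPKM in OE-SOX3 and 40.4 to 52.4 FPKM in OE-NC, and HNRNPUL2 had 47.9 to 49.4 FPKM in OE-SOX3 and 55.4 to 69.7 FPKM in OE-NC. In none of these 6 genes did the groups overlap. Without OE-NC 1 the log2 fold changes of HNRNPA3, HNRNPH3 and HNRNPUL2 were -0.34, -0.22 and -0.20, all past the threshold. HNRNPF, which binds G-rich tracts, averaged 64.1 ± 0.858 FPKM in OE-SOX3 and 85.0 ± 5.84 FPKM in OE-NC, and was a member with OE-NC 1 below its fellows. The calls of HNRNPH3 and HNRNPUL2 did not hold throughout. HNRNPH3 was lost without OE-SOX3 2 (0.0982) and without OE-SOX3 3 (0.0778), and HNRNPUL2 without OE-SOX3 1, 2 or 3 (0.07, 0.0668 and 0.0813). Both were also lost at an equal sum of FPKM (0.0616 and 0.0618) and under quantile normalization (0.271 and 0.553), and HNRNPH3 without the length trend (0.0676). HNRNPUL2 shares 44.1% of its exon bases with a read-through gene, HNRNPUL2-BSCL2. HNRNPF and HNRNPA3 did not pass under quantile normalization (0.128 and 0.0524).

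**Figure D3:**
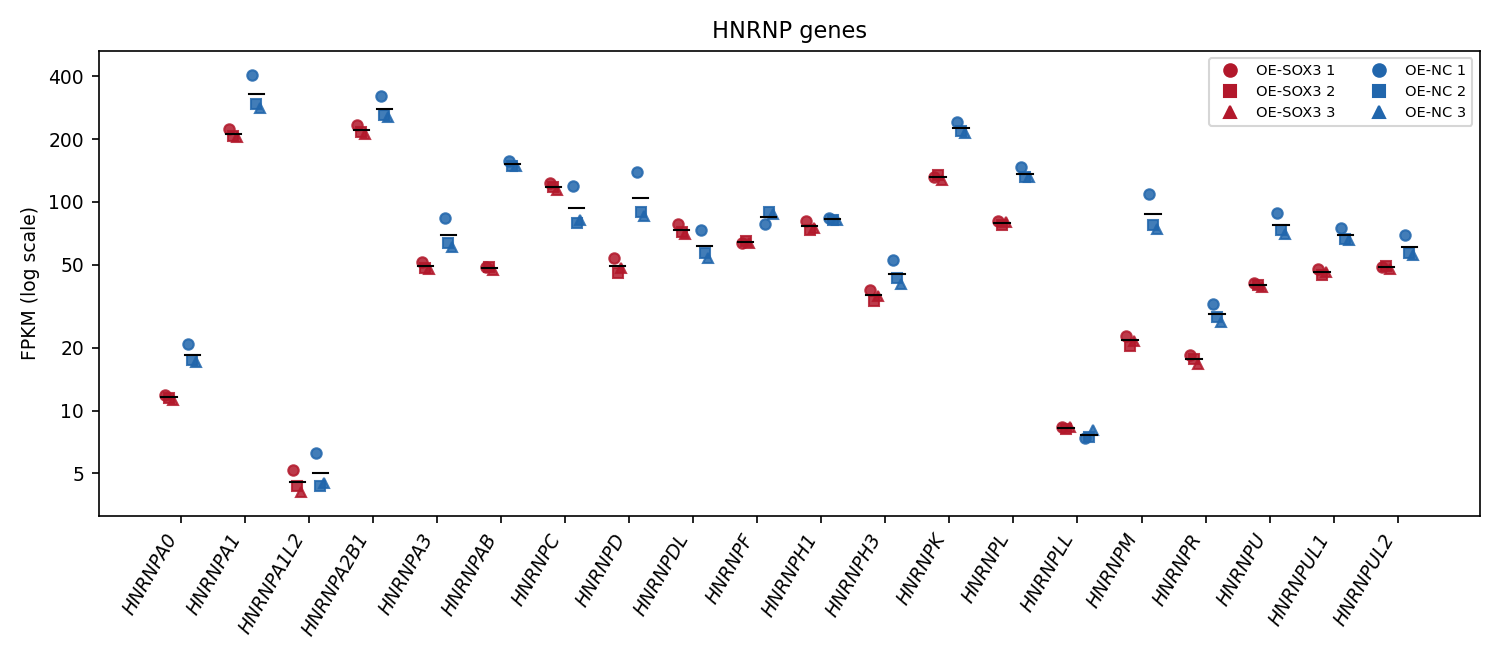
FPKM (y axis, log scale) of the 20 tested HNRNP genes in each library; bars mark group means of 3 libraries and symbols the replicate number. Most OE-SOX3 libraries lie below their OE-NC libraries, those of HNRNPC and HNRNPDL lie above OE-NC 2 and 3, and OE-NC 1 (blue circles) is the highest OE-NC library in 18 of the 20 genes.

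HNRNPC and HNRNPDL went against the family once OE-NC 1 was left out. HNRNPC, which binds U-rich tracts and guards against exonization of Alu elements, had 122.8, 117.9 and 113.4 FPKM in OE-SOX3 and 119.5, 79.2 and 81.6 FPKM in OE-NC. Only OE-NC 1 overlapped the OE-SOX3 libraries. The log2 fold change was 0.36 (limma adjusted p = 0.0727), 0.36 with the replicate block (limma adjusted p = 0.023) and 0.55 without OE-NC 1 (limma adjusted p = 8e-07). HNRNPDL, a relative of HNRNPD, had 78.3, 71.5 and 70.4 FPKM in OE-SOX3 and 73.3, 56.6 and 54.0 FPKM in OE-NC. Its log2 fold change was 0.27 (limma adjusted p = 0.0827), 0.27 with the replicate block (limma adjusted p = 0.0217) and 0.40 without OE-NC 1 (limma adjusted p = 3.72e-05). At an equal sum of FPKM both passed as higher (0.00643 and 0.00404). HNRNPD and HNRNPDL, both on chromosome 4, thus had values of opposite sign, with HNRNPDL past the threshold only in some settings.

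HNRNPH1, which binds G-rich tracts, had 73.1 to 80.7 FPKM in OE-SOX3 and 81.9 to 84.0 FPKM in OE-NC and did not pass (log2 fold change -0.12, limma adjusted p = 0.133). HNRNPLL, a regulator of CD45 splicing in lymphocytes, averaged 8.28 FPKM in OE-SOX3 and 7.63 FPKM in OE-NC and did not pass (0.11, limma adjusted p = 0.158), although it did at an equal sum of FPKM (0.0353). HNRNPH2, a close paralog of HNRNPH1, was listed at 0.0229 to 0.0452 FPKM in OE-SOX3 and 0 to 0.0464 FPKM in OE-NC and was not tested. Its neighbour RPL36A, a ribosomal protein gene with which it shares an annotated read-through gene, was also low, at 0.136 to 0.437 FPKM in OE-SOX3 and 0.388 to 0.552 FPKM in OE-NC. Whether reads of these genes were left unassigned was not tested.

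Set against each other within a library, the classes differed most in the CLK genes. The summed FPKM of SRSF and TRA2 genes was 2.44, 2.36 and 2.36 times the summed FPKM of the CLK genes in OE-SOX3 and 11.3, 9.69 and 9.58 times in OE-NC. For HNRNP genes this ratio was 6.89, 6.73 and 6.80 in OE-SOX3 and 34.7, 28.7 and 27.9 in OE-NC. The ratio of HNRNP to SRSF and TRA2 sums was nearly level, at 2.82, 2.85 and 2.89 in OE-SOX3 and 3.07, 2.97 and 2.91 in OE-NC. Relative to CLK transcripts, the transcripts of both families of RNA-binding proteins were therefore fewer in OE-SOX3. SR and hnRNP genes kept a similar ratio to each other. The SRPK sum averaged 26.1 FPKM in OE-SOX3 and 33.1 FPKM in OE-NC. This was a ratio of 0.789, against 0.705 for the SRSF and TRA2 sum and 0.673 for the HNRNP sum. HNRNP genes made up 0.398% to 0.421% of all FPKM in OE-SOX3 and 0.522% to 0.586% in OE-NC.

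**Figure D4:**
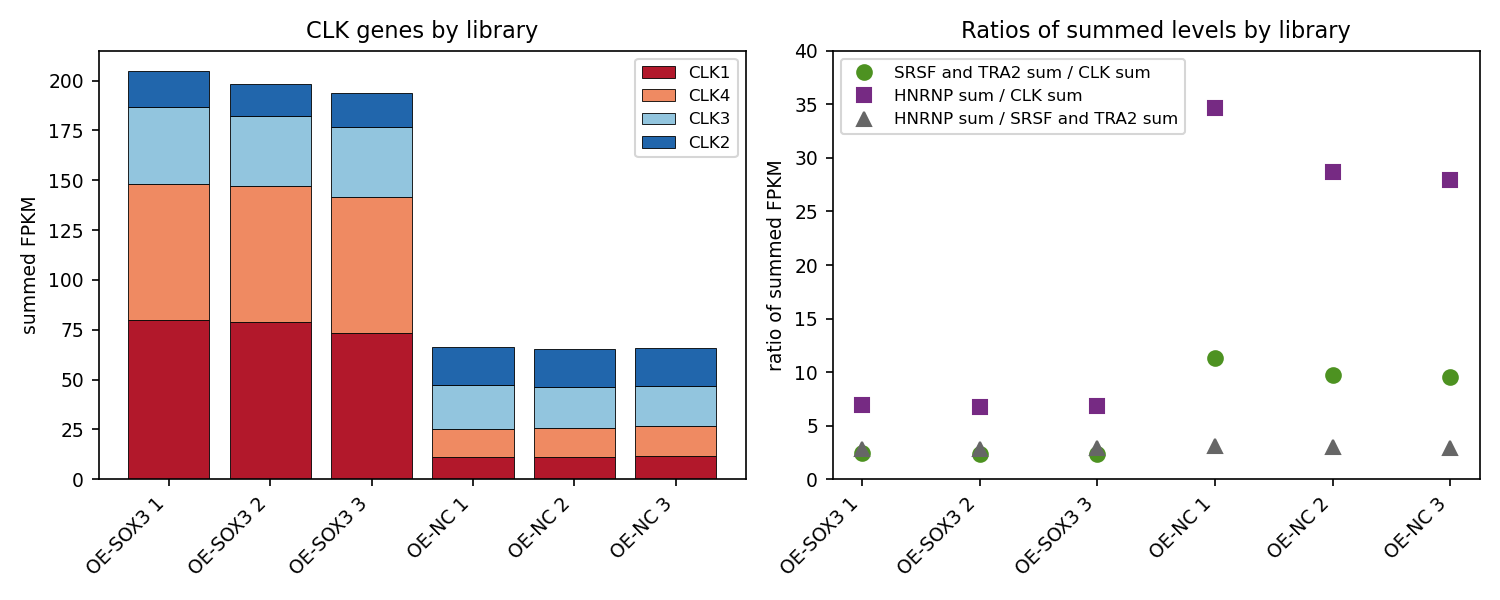
Left, summed FPKM of CLK1 to CLK4 (y axis, from 0) in each library; right, ratios of summed FPKM between the classes in each library. The CLK sum is 194 to 205 FPKM in OE-SOX3 and 65.6 to 66.6 FPKM in OE-NC, with CLK1 the largest share in OE-SOX3 and CLK3 in OE-NC.

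The number of HNRNP falls moved with the scaling and with the OE-SOX3 library left out. It was 14 without OE-SOX3 1, 12 without OE-SOX3 2 and 12 without OE-SOX3 3, with 0 rising in each case. Of all tested genes, 31.7%, 30.6% and 30.7% fell in these fits, and 28.3%, 28.3% and 28.8% rose. At an equal sum of FPKM 13 HNRNP genes fell and 3 rose, where 28.7% of all tested genes fell and 39.3% rose. Under quantile normalization 11 HNRNP genes fell and 2 rose, where 34.5% of all tested genes fell and 34.8% rose. SRSF and TRA2 genes numbered 7 lower and 2 higher at an equal sum. With the length trend removed, 14 HNRNP genes fell and 0 rose, and 8 SRSF and TRA2 genes fell and 2 rose. In that fit 3 kinase genes rose and 1 fell, where 36.1% of all tested genes fell and 34.7% rose. The median log2 fold changes were then -0.55 for HNRNP genes, -0.48 for SRSF and TRA2 genes and 0.58 for the kinases. Without OE-NC 1, 15 HNRNP genes fell and 2 rose, 9 SRSF and TRA2 genes fell and 3 rose, and 4 kinase genes rose and 2 fell, where 81.5% of all tested genes passed, 38.4% higher and 43.1% lower. CLK1, CLK3 and CLK4 rose, and SRPK1 fell, in every alternative tried.

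hnRNPs whose genes carry other symbols were mostly lower too. Of 7 such genes, 6 fell, 0 rose and PCBP2, named after its value was seen, did not pass (median -0.72). The falls were 85.7% of this list, against 36.1% of all tested genes. RBMX, or hnRNP G, had 47.6 to 51.4 FPKM in OE-SOX3 and 99.8 to 119 FPKM in OE-NC (-1.09). PCBP1, or hnRNP E1, averaged 86.7 ± 2.65 FPKM in OE-SOX3 and 146 ± 11.4 FPKM in OE-NC (-0.75). The HNRNPC relative RALY averaged 36.4 ± 1.53 FPKM in OE-SOX3 and 55.3 ± 3.96 FPKM in OE-NC (-0.59; SD, n = 3 each).

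The SR-related and speckle proteins, which carry arginine- and serine-rich stretches but lack the classical SR layout, were more often higher. Among 28 genes, 15 rose, 4 fell and 9 were not past the threshold (median 0.36). The share changed, 67.9%, was near the 69.1% of all tested genes. Rises were 53.6% and falls 14.3% of the list, against 32.9% and 36.1% of all tested genes. RSRP1, an arginine- and serine-rich protein, averaged 27.8 ± 1.71 FPKM in OE-SOX3 and 6.75 ± 0.473 FPKM in OE-NC (log2 fold change 1.89, limma adjusted p = 2.68e-06). PNISR averaged 26.8 ± 0.99 FPKM in OE-SOX3 and 8.68 ± 0.744 FPKM in OE-NC (1.52). CCNL1, the cyclin partner of the splicing-linked CDK11 kinases, averaged 16.1 ± 0.607 FPKM in OE-SOX3 and 7.32 ± 0.397 FPKM in OE-NC (1.04), and ARGLU1 46.3 ± 0.748 FPKM in OE-SOX3 and 24.8 ± 1.61 FPKM in OE-NC (0.88; SD, n = 3 each). LUC7L3 (1.61) and NKTR (1.51) also rose and were chosen after their values were seen.

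Core spliceosome genes were mostly lower. Of 34 snRNP and tri-snRNP genes, 2 rose, 26 fell and 6 did not pass (median -0.68). Falls were 76.5% and rises 5.88% of the list, against 36.1% and 32.9% of all tested genes. The Sm protein gene SNRPD1 averaged 4.26 ± 0.133 FPKM in OE-SOX3 and 15.4 ± 3.29 FPKM in OE-NC (log2 fold change -1.62). SNRNP40 (-1.27), PRPF4 (-1.23) and SNRPC (-0.95), of the U5, U4/U6 and U1 particles, fell as well. Of 16 genes for branch point and 3′ splice site factors, 1 rose, 11 fell and 4 did not pass (median -0.64). SF3B4 (-1.32), PUF60 (-1.04), U2AF2 (-0.91) and SF3B3 (-0.83) were among the falls. The gene that rose was SF3B1 (1.0), named after its value was seen. It had 66.4 to 68.8 FPKM in OE-SOX3 and 27.5 to 37.4 FPKM in OE-NC. Of 15 nonsense-mediated decay and exon junction genes, 1 rose, 9 fell and 5 did not pass (median -0.33), with EIF4A3 (19.4 to 21.2 FPKM in OE-SOX3 and 39.3 to 45.4 FPKM in OE-NC), MAGOHB (-0.98), SMG9 (-0.59) and SMG8 (-0.44) lower.

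Other genes that act on SR proteins went in both directions, as all tested genes did. Among 16 genes of kinases, phosphatases and importins, 6 rose, 4 fell and 6 were not past the threshold (median 0.09). Rises were 37.5% and falls 25.0% of the list, against 32.9% and 36.1% of all tested genes. The kinase gene DYRK2 had 10.6 to 11.6 FPKM in OE-SOX3 and 2.90 to 3.78 FPKM in OE-NC (1.46), and the speckle kinase gene PRPF4B 16.5 ± 0.345 FPKM in OE-SOX3 and 10.4 ± 0.711 FPKM in OE-NC (0.62). PPP1CA, a catalytic subunit of protein phosphatase 1, which dephosphorylates SR proteins, averaged 58.1 ± 0.248 FPKM in OE-SOX3 and 112 ± 7.52 FPKM in OE-NC (-0.93), and its nuclear inhibitor gene PPP1R8 15.4 ± 1.04 FPKM in OE-SOX3 and 26.1 ± 1.41 FPKM in OE-NC (-0.72; SD, n = 3 each). The catalytic subunit gene PPP1CB rose (0.49) and PPP1CC did not pass (-0.03). Both were named after their values were seen. Of 28 other sequence-specific splicing regulators, 11 rose, 11 fell and 6 did not pass (median -0.03). Rises and falls were 39.3% each, near the shares of all tested genes. MBNL2 (1.34), TIA1 (0.95) and RBM39 (0.60) rose and SFPQ (-0.91) fell.

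**Figure D5:**
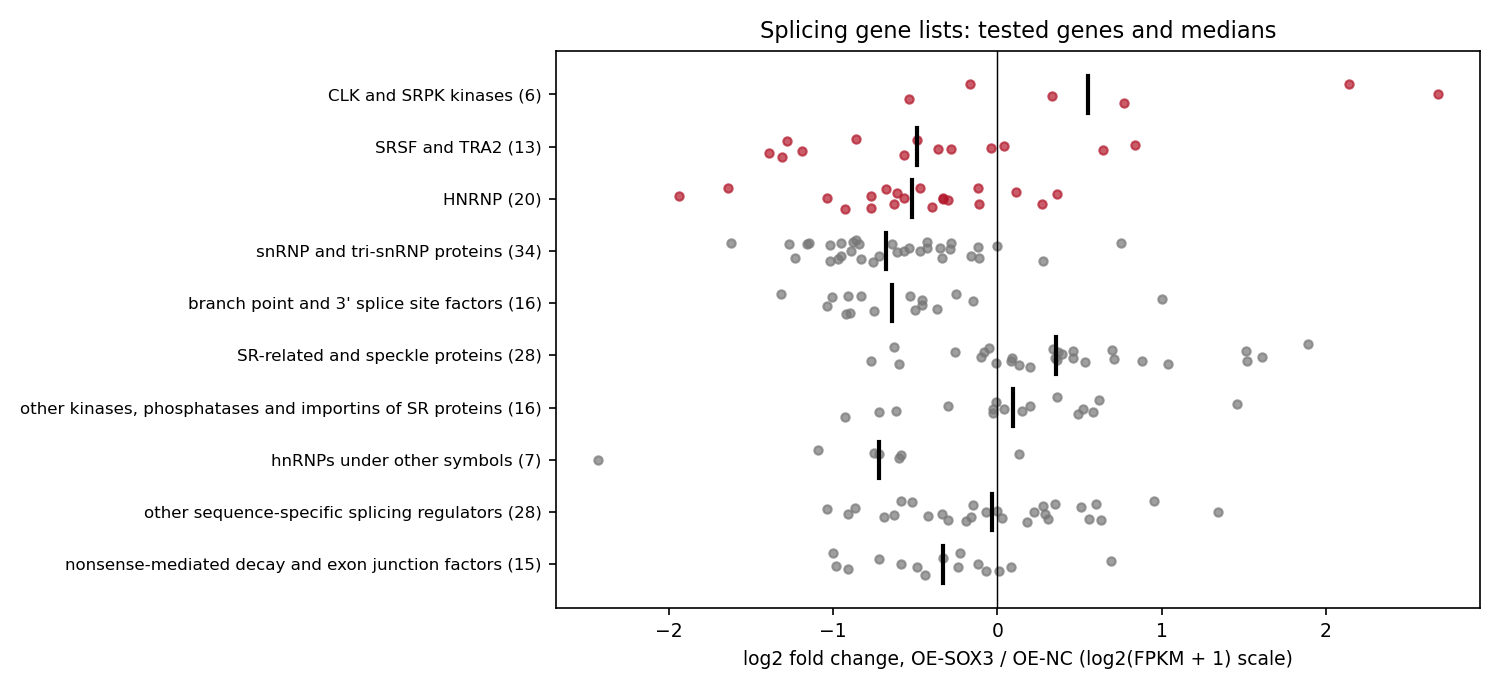
Log2 fold change (x axis, OE-SOX3 over OE-NC on the log2(FPKM + 1) scale) of every tested gene in the 3 member classes (red) and the 7 other splicing lists (grey), with the number tested in brackets; thick bars are medians. The kinases (0.55) and SR-related genes (0.36) lie on the higher side, HNRNP (-0.52) and snRNP genes (-0.68) on the lower.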

How the data were processed

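The table that the authors deposited holds 1 value per gene and library from RNA-seq of KGN cells. Its header names no unit. The deposited values were read as FPKM, since they rise in equal steps whose size differs by gene. The submitters' processing notes name HISAT2, HTSeq, RSEM and hg38 with no version or role. The annotation, read layout and strand setting were not found there.

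Whole reads with a whole gene length fitted 16273 of 16278 genes above 0 (within 0.02 reads), which gave 18039929 to 20335307 reads per library. The smallest solution was taken, so reads that share a divisor come out too low. Intervals (95%, exact binomial) cover counting error only.

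The 11131 genes averaging 1 FPKM or more in OE-SOX3 or OE-NC were tested on log2(FPKM + 1) with limma-trend (limma 3.58.1, R 4.3.3) in all 6 libraries without covariates. P-values were adjusted by Benjamini-Hochberg over all genes tested, with a threshold of 0.05, and a second rule asked also for a 1.5-fold difference. The scale understates changes of low genes. The values, counts and adjusted p given are from this unpaired fit, and a fit with the replicate number as a block was an alternative. Deviations from the group means correlated across genes at 0.486, 0.243 and 0.25 between libraries of the same replicate number. The labels state no pairing, and same-numbered libraries were not always the closest, since OE-SOX3 2 correlated at 0.282 with OE-NC 3. Pairs of different number ranged from -0.462 to 0.282.

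The members and the lists were chosen with earlier results of these data known. Every member with at least 1 FPKM in a group was named, and up to 4 changed genes of each other list by adjusted p. The values of 1 gene that this rule names are not reported here. Gene positions come from GENCODE 29 (GRCh38) and promoters from RefSeq (GRCh38.p14), matched by symbol. Python 3.11.15, NumPy 2.4.6, pandas 2.3.3 and SciPy 1.17.1 were used.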

Additional observations from a re-analysis of the deposited data

How the results depend on the processing

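The alternatives were a pseudocount of 0.1, no filter on low values, an equal sum of FPKM, quantile normalization, removal of the length trend, limma-voom on recovered reads, the replicate block and each library left out. An equal sum without OE-NC 1 was added after seeing the data. Of 546 member values under these 14 settings, 496 kept their direction and their side of the threshold, 24 lost the threshold, 15 passed it only in the alternative and 11 changed sign. All counts of changed members and of changed genes in the other splicing lists stayed within 1.5 times the counts given. Across all genes the number changed ranged from 6557 to 9076 with a library left out, against 7686. The replicate block changed the calls of HNRNPC (adjusted p = 0.023) and HNRNPDL (adjusted p = 0.0217), bringing the changed HNRNP genes to 17, and no other member's call. With that block 72.1% of all tested genes passed.

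The median log2 fold change of the kinases (0.55) was 0.33 with no filter on low values, 0.69 at an equal sum, 0.66 under quantile normalization and 0.68 at an equal sum without OE-NC 1, with 0.52 to 0.60 when a library was left out. The SRSF and TRA2 median (-0.49) was -0.34, -0.26 and -0.28 at an equal sum, under quantile normalization and at an equal sum without OE-NC 1. The HNRNP median (-0.52) was -0.38, -0.27 and -0.36 in the same order. Leaving out a library gave -0.55 to -0.37 and -0.58 to -0.45. The cause was not tested.

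Signs changed only in members that did not pass with all libraries. At an equal sum HNRNPA1L2 stood at 0.01, HNRNPH1 at 0.03 and SRSF8 at 0.06. HNRNPH1 stood at 0.09 under quantile normalization and HNRNPA1L2 at 0.05 without the length trend. Without OE-NC 1, HNRNPA1L2 was at 0.03 and SRSF8 at 0.05, and at an equal sum as well 0.10 and 0.11. SRSF4 was at -0.07 without OE-NC 2 and -0.06 without OE-NC 3. With a library left out, HNRNPA1L2 ranged from -0.20 to 0.03, SRSF4 from -0.07 to 0.24 and SRSF8 from -0.11 to 0.05. HNRNPH2, SRPK3 and SRSF12, at 0 to 2 reads per library, were too low to test.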
